A study of Homo sapiens with 6 samples.

Results

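Transcripts of 8 DNA mismatch repair genes were compared between A2780 cells, a human ovarian cancer line sensitive to doxorubicin, and A2780-ADR cells, the adriamycin-resistant line (adriamycin is another name for doxorubicin) derived from it. The genes were taken by name: MSH6, MSH3, PMS2, PMS1, MLH3, EXO1, PCNA and LIG1, 8 of the 58051 Ensembl genes in the table of normalized counts. The rule itself uses no measured value, but the genes were chosen with earlier results of these data known. There were 3 untreated samples of each line, grown in the same medium and sequenced after selection of polyadenylated RNA. Each line stands as 1 model, and nothing in the sources used here says whether A2780-ADR is a clone or whether the samples came from separate cultures, so the p-values speak for the variation among these 6 samples, part of which may be technical.

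Mismatch repair removes base mismatches and small loops left behind by DNA polymerases. MutS heterodimers find the error, with MSH6 in the form that reads single mismatches and short loops and MSH3 in the form that reads longer loops. MutL heterodimers, which carry PMS2, PMS1 or MLH3, are then recruited, the PMS2 and MLH3 forms nick DNA, EXO1 degrades the strand that holds the error, a DNA polymerase on its sliding clamp PCNA fills the gap, and LIG1 seals it. Loss of this pathway makes short repeats unstable, and it is known for altering how tumor cells, ovarian ones included, respond to DNA-damaging drugs.

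MLH3 was almost lost in A2780-ADR cells, falling about 40.2-fold, while the other 7 genes changed by less than 2-fold. MSH6 and LIG1 were lower and EXO1 and PCNA were higher, by 1.14- to 1.55-fold, and no difference passed the test for MSH3, PMS2 and PMS1. Calls of differentially expressed genes (DEGs) needed a Benjamini-Hochberg adjusted p under 0.05 from limma, on log2(normalized count + 1), and a change above 2-fold, and 17005 genes whose mean reached 10 normalized counts were tested. All 8 genes passed the count filter. By this rule 1 of the 8 genes was a DEG, where 27.6% of all tested genes were. Without the fold threshold 5 of the 8 genes passed limma's test, where 71.8% of tested genes did, and of these 2 were higher (35.4% of tested genes) and 3 lower (36.4%). The samples of the lines did not overlap for these 5 genes, as for 74.6% of tested genes. The median log2 fold change (A2780-ADR minus A2780) was -0.01 for the 8 genes and -0.01 for all tested genes, and the median size of the change without its sign was 0.26 against 0.49.

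The libraries held 27775745 to 30513366 reads in genes. ABCB1, the gene of the drug efflux pump, was used to check the resistance label and had 0 to 2.04 normalized counts in A2780 and 26769 to 29512 in A2780-ADR. Of the markers used to check the tissue label, the Müllerian transcription factor genes PAX8, WT1 and EMX2 all had means under 10 over the 6 samples. Their sum was nonetheless higher in A2780-ADR, at 13.2 to 27.0 normalized counts against 1.02 to 4.22 in A2780. Summed epithelial markers ranged from 280.1 to 316 normalized counts in A2780 and from 12330 to 13777 in A2780-ADR, carried by the keratin genes KRT8 and KRT18, while CDH1 was under 10 on average. The 4 fibroblast markers, led by COL3A1, summed to 24911 to 28211 in A2780 and 34717 to 35801 in A2780-ADR. They did not move together: by log2 fold change COL3A1 (0.29) and COL1A1 (3.11) rose, while DCN (-2.41) and LUM (-0.91) fell. The part of these marker differences in the results was not tested. The 4 leukocyte markers summed to at most 11.6 and the 3 endothelial markers to at most 6.74 normalized counts in any sample. In bulk RNA, fewer cells that express a gene and less RNA per cell cannot be told apart.

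The promoter windows of 3 genes are printed: MLH3 for its large loss, MSH6 for the next largest change, and EXO1 as a gene that rose. Each window runs from 250 bases before to 50 bases after the RefSeq start (GRCh38.p14), 5′ to 3′ on the strand of the gene, and capitals mark matches on either strand to the motifs listed after them.
MLH3, chr14:75051418-75051717, minus strand: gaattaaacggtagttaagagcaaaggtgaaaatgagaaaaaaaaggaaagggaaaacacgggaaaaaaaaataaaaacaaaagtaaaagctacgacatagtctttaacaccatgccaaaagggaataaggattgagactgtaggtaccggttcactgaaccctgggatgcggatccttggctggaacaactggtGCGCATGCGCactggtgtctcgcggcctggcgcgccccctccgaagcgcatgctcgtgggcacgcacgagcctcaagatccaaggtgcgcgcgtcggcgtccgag
MSH6, chr2:47782895-47783194, plus strand: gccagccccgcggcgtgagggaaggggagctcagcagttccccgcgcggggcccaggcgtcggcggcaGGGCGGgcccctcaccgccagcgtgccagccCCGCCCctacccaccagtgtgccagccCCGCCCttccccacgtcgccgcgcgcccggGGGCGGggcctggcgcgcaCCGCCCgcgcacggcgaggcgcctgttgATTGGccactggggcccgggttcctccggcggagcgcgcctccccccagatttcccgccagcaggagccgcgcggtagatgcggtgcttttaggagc
EXO1, chr1:241847954-241848253, plus strand: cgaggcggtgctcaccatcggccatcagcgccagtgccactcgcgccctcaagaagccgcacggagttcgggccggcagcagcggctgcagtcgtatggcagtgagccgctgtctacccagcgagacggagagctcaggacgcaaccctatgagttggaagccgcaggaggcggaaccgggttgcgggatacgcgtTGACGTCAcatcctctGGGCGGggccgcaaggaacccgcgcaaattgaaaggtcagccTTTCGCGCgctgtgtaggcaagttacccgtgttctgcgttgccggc

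The motifs were the CCAAT box (CCAAT, in 34.6% of 34943 RefSeq promoter windows), the GC box (GGGCGG, 44.9%), the TATA box (TATAAA, 11.6%), a pair of E2F forms (TTTGGCGC in 0.65% and TTTCGCGC in 0.507%), the cAMP response element (TGACGTCA, 1.84%) and an NRF1 site (the capitals of the MLH3 window, 1.23%). Where genes had several starts, the most upstream window was read. None of the 8 windows held a TATA box, and 7 of them, those other than MLH3, held from 1 to 5 GC boxes. The MLH3 window held neither a GC box nor a CCAAT box and had 1 NRF1 site. It was also the poorest in G and C (51.0%, against 60.7% to 78.0% in the other 7) and had the fewest CpG dinucleotides (22, against 24 to 40). The EXO1 window held the E2F form TTTCGCGC, the MSH3 window held both forms, and the other 6 windows held neither. A cAMP response element, the site of CREB factors, lay in the EXO1 and PMS2 windows. The last 2 motifs were added after the sequences had been seen, and a match of letters is not evidence of binding.

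**Figure D1:**
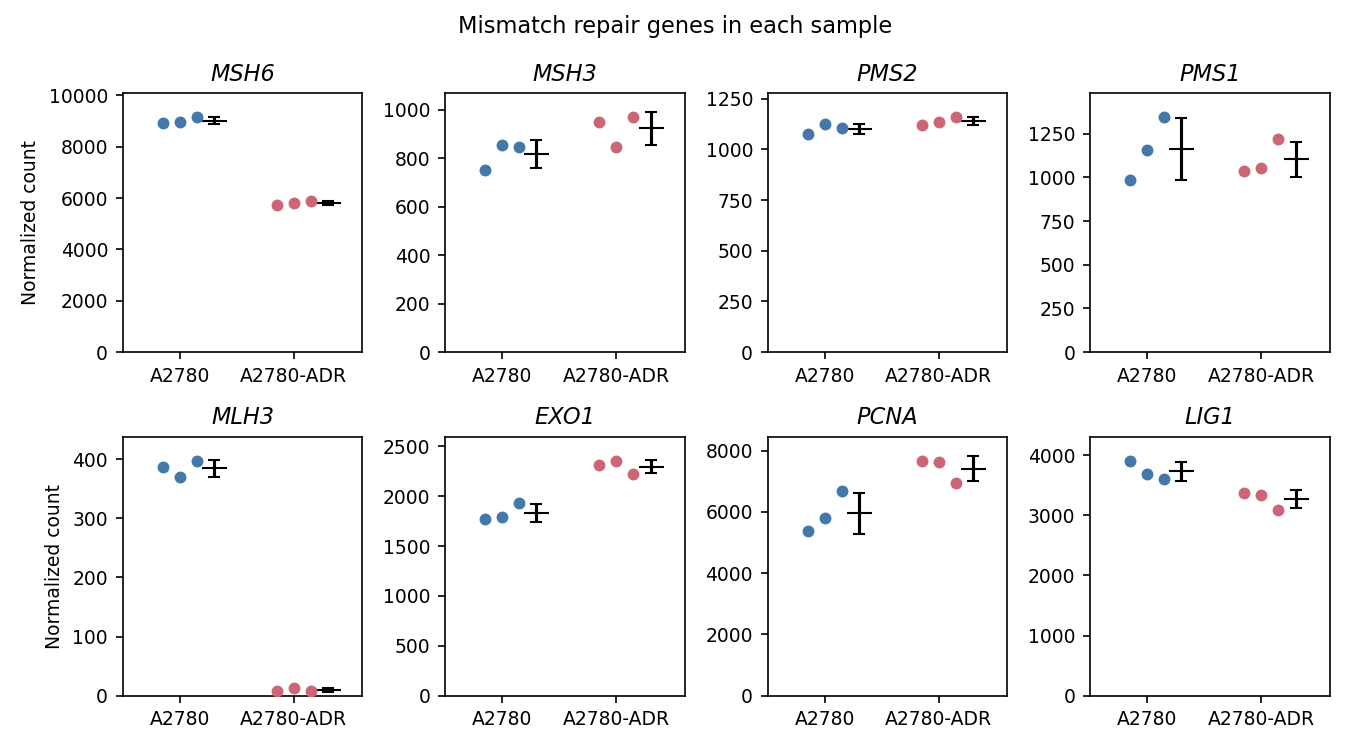
Normalized counts (y axis, from 0) of the 8 mismatch repair genes in each sample of A2780 and A2780-ADR, as points, with the mean and SD of 3 samples beside them. MLH3 lies at 370 to 398 in A2780 and at 7.70 to 12.5 in A2780-ADR, and the lines also separate for MSH6, EXO1, PCNA and LIG1.

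Of the mismatch recognition subunits, MSH6 (ENSG00000116062, chromosome 2 from 47695530 to 47810101, plus strand) had 8925, 8960.2 and 9161 normalized counts in A2780 and 5720.4, 5829 and 5895 in A2780-ADR. The lines were far apart beside a spread of 1.41% and 1.51% of the mean within them. MSH6 fell by 0.63 on the log2 scale (standard error 0.04, adjusted p = 2.89e-08 from limma, 9015.5 ± 127 to 5815 ± 88.1, SD, n = 3), a 1.55-fold decrease. FBXO11, a ubiquitin ligase subunit gene on the opposite strand, overlaps 16.2% of the exon bases of MSH6 and rose over the same samples (log2 fold change 0.52, adjusted p = 2.64e-05 from limma). The strand setting of the counting is not given in the sources used here, so reads of that overlap cannot be told apart by gene.

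MSH3 (ENSG00000113318, chromosome 5 from 80654648 to 80876460, plus strand) had 749, 854 and 848 normalized counts in A2780 and 951, 846 and 969 in A2780-ADR. The A2780-ADR sample at 846 fell among the A2780 values, so the lines overlapped. The log2 fold change was 0.17 (standard error 0.08, unadjusted 95% interval 0.01 to 0.34) with an adjusted p = 0.0552 from limma. It passed with edgeR (adjusted p = 0.0279) and DESeq2 (0.0486) on the whole reads and with limma without A2780-ADR replicate 2 (0.24, adjusted p = 0.0215), and the adjusted p over all alternatives ran from 0.0215 to 0.206.

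Set against each other within a sample, which removes the scaling of the libraries, MSH3 stood at 0.0839, 0.0953 and 0.0925 of the MSH6 count in A2780 and at 0.166, 0.145 and 0.164 in A2780-ADR. The balance thus lay nearer to MSH3 in every A2780-ADR sample, by 0.81 on the log2 scale (from -3.47 ± 0.10 to -2.66 ± 0.11, SD, n = 3, exact permutation test, two-sided p = 0.1). With 3 samples against 3 the smallest p this test can give is 0.1. MSH6 differed by -0.63 and MSH3 by 0.17 on that scale.

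MLH3 (ENSG00000119684, chromosome 14 from 75013764 to 75051532, minus strand) had 388, 370 and 398 normalized counts in A2780 and 8.51, 12.5 and 7.70 in A2780-ADR. The highest A2780-ADR sample was far below the lowest A2780 sample. The fall from 385 ± 14.3 to 9.58 ± 2.58 (SD, n = 3) gave a log2 fold change of -5.22 (standard error 0.19, adjusted p = 2.16e-10 from limma), and 2.35% of tested genes fell as far or further. In whole reads the A2780 libraries held 1121 reads of MLH3 together, and the A2780-ADR libraries held 9, 13 and 8. Of the 50-base stretches of its annotated transcripts, 0.12% also occur in transcripts of other genes, so few reads could belong elsewhere.

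PMS2 (ENSG00000122512, chromosome 7 from 5973239 to 6009125, minus strand), the subunit of the main MutL form, had 1074, 1123 and 1106 normalized counts in A2780 and 1122, 1137 and 1160 in A2780-ADR. The values of the lines met at 1122 to 1123. The log2 fold change was 0.05 (95% interval -0.07 to 0.17, adjusted p = 0.422 from limma), so this interval leaves no room for a change of 2-fold. PMS2 has close copies, and 23.0% of its 50-base stretches also occur in other genes, 19.1% in the pseudogene PMS2CL, so its level is uncertain.

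PMS1 (ENSG00000064933, chromosome 2 from 189784085 to 189877629, plus strand), whose repair role is less clear, was the most variable member in A2780, with 987, 1156 and 1345 normalized counts. In A2780-ADR it had 1038, 1056 and 1219, all inside the A2780 range. The log2 fold change was -0.07 (95% interval -0.29 to 0.16, adjusted p = 0.573 from limma), and it turned to 0.04 without A2780 replicate 3.

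Among these MutL partners the balance moved away from MLH3. MLH3 was at 0.361, 0.329 and 0.360 of the PMS2 count in A2780 and at 0.00759, 0.0110 and 0.00664 in A2780-ADR, a difference of -5.27 in the log2 ratio, with no overlap of the lines (exact permutation test, two-sided p = 0.1). PMS1 was at 0.919 to 1.22 of the PMS2 count in A2780 and at 0.925 to 1.05 in A2780-ADR, and that log2 ratio differed by -0.12 with overlapping samples (exact permutation test, two-sided p = 0.7).

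**Figure D2:**
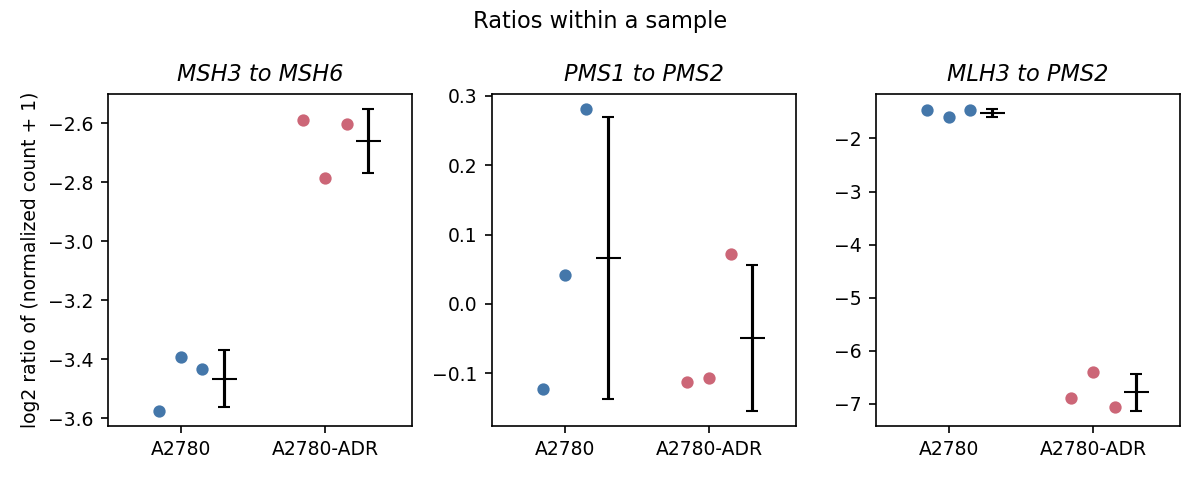
Log2 ratio of normalized counts (+ 1) within each sample (y axis, scaled to each panel) for MSH3 to MSH6, PMS1 to PMS2 and MLH3 to PMS2 in A2780 and A2780-ADR, as points with the mean and SD of 3 samples. The MSH3 to MSH6 ratio is higher and the MLH3 to PMS2 ratio lower in all A2780-ADR samples, and the PMS1 to PMS2 ratios overlap.

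EXO1 (ENSG00000174371, chromosome 1 from 241847967 to 241895148, plus strand), the exonuclease of the pathway, had 1772, 1788 and 1938 normalized counts in A2780 and 2312, 2359 and 2226 in A2780-ADR. Every A2780-ADR sample was above every A2780 sample. EXO1 rose by a log2 fold change of 0.33 (standard error 0.05, adjusted p = 1.37e-04 from limma), a 1.25-fold increase. None of its 50-base stretches occurs in another gene.

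PCNA (ENSG00000132646, chromosome 20 from 5114953 to 5126626, minus strand) had 5366, 5815 and 6672 normalized counts in A2780 and 7679, 7627 and 6942 in A2780-ADR. The highest A2780 sample, at 6672, was below the lowest A2780-ADR sample, at 6942. PCNA rose by a log2 fold change of 0.32 (standard error 0.07, adjusted p = 0.00166 from limma), a 1.25-fold increase.

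LIG1 (ENSG00000105486, chromosome 19 from 48115445 to 48170603, minus strand), the ligase that joins newly made DNA, had 3911, 3680.0 and 3602 normalized counts in A2780 and 3367, 3344 and 3095 in A2780-ADR. All A2780-ADR samples were below the A2780 samples. LIG1 fell by 0.19 on the log2 scale (standard error 0.05, adjusted p = 0.00547 from limma), a 1.14-fold decrease. The directions of excision and resynthesis genes thus differed, with EXO1 and PCNA higher and LIG1 lower.

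**Figure D3:**
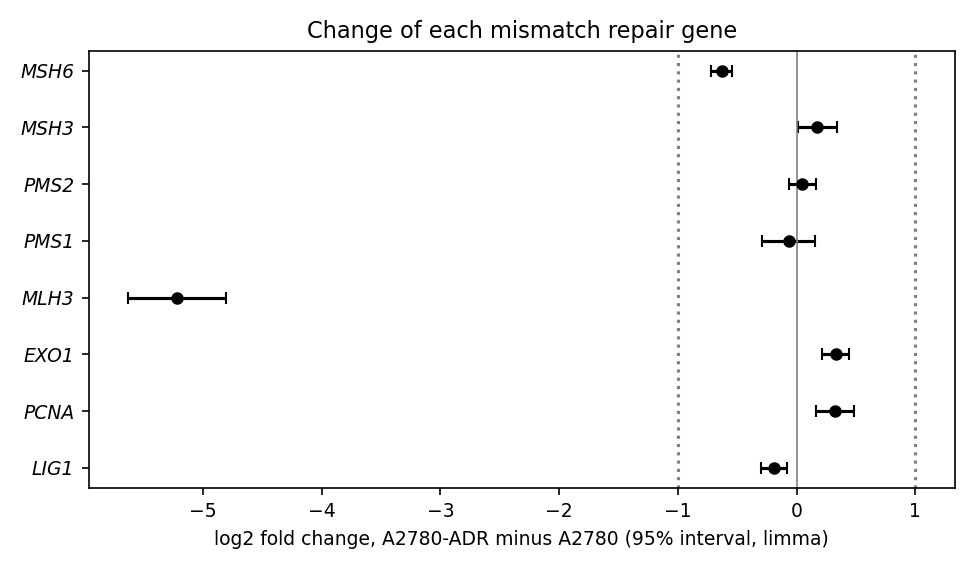
Log2 fold change of each mismatch repair gene (x axis, A2780-ADR minus A2780) from limma, with its 95% interval as the bar and dotted lines at a 2-fold change. MLH3 at -5.22 lies beyond the dotted line, and the other 7 genes lie between -0.63 and 0.33.

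Counts were divided by the exon length of each gene to set the levels of the members beside each other. In A2780 the order per kb of exon was PCNA (4046 ± 451 normalized counts per kb, SD, n = 3), MSH6 (820.1 ± 11.6), LIG1 (567 ± 24.4), EXO1 (443 ± 22.1), PMS2 (279.8 ± 6.34), PMS1 (213 ± 32.8), MSH3 (173 ± 12.5) and MLH3 (46.0 ± 1.71). PMS1 and MSH3 overlapped between samples (180.9 to 247 and 159 to 181), and the other neighbours in this order did not. MLH3 was thus the lowest member in A2780 too. In A2780-ADR, PCNA stayed first (5041 ± 279.7), EXO1 (555 ± 16.3) came above MSH6 (529 ± 8.01) and LIG1 (497 ± 22.9), PMS2 stood at 289 ± 4.85, PMS1 (202 ± 18.4) and MSH3 (196 ± 14.1) overlapped again, and MLH3 stood at 1.15 ± 0.31. With the length of the principal transcript in place of all exons, the order in A2780 was the same, but EXO1 and LIG1 exchanged places in A2780-ADR.

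The loss of MLH3 was set beside the genes around it, a view chosen after its values had been seen. ACYP1, an acylphosphatase gene that starts upstream of MLH3 on the same strand, had 369, 438 and 462 normalized counts in A2780 and 178, 165 and 153 in A2780-ADR (log2 fold change -1.35, adjusted p = 3.05e-07 from limma). EIF2B2, a translation initiation factor subunit gene on the other side, fell by 0.75 on the log2 scale (1279 to 761, adjusted p = 2.65e-07 from limma). Both neighbours were thus lower in A2780-ADR, though far less so than MLH3. ZC2HC1C, whose start lies 12.6 kb from that of MLH3 and nearer than theirs, fell further than they did (log2 fold change -4.12). Of 16 other tested genes that start within 500 kb of MLH3, 16 had a log2 fold change below 0 and 11 were DEGs with lower levels, where 14.4% of all tested genes were, and their median was -1.40. Within 2000 kb, 50 of 51 were below 0, 31 of them DEGs, with a median of -1.16. The exception was FLVCR2 (0.57, adjusted p = 0.0172 from limma), a choline and heme transporter gene. Just beyond 2000 kb, DEGs with higher levels lay on both sides, among other genes with lower levels, so the share below 0 depends on the window.

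Some genes of this region had falls of the same order as that of MLH3, or larger. JDP2, a repressor of AP-1 factors, had a log2 fold change of -6.02 (1279 to 18.8), RIOX1, a histone and ribosome hydroxylase gene, -8.87 (918 to 1.28), AF111167.2, an antisense transcript that overlaps the start of JDP2, -5.28, and ZC2HC1C, which overlaps ACYP1 on the opposite strand, -4.12 (98.6 to 4.78). Over the 530 other tested genes of chromosome 14, 352 were below 0 and 153 were DEGs with lower levels, with a median of -0.37. Windows of 500 kb around the other 7 members held 3 to 28 tested genes, with medians from -0.13 (PMS2) to 0.60 (EXO1) and at most 3 DEGs with lower levels.

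**Figure D4:**
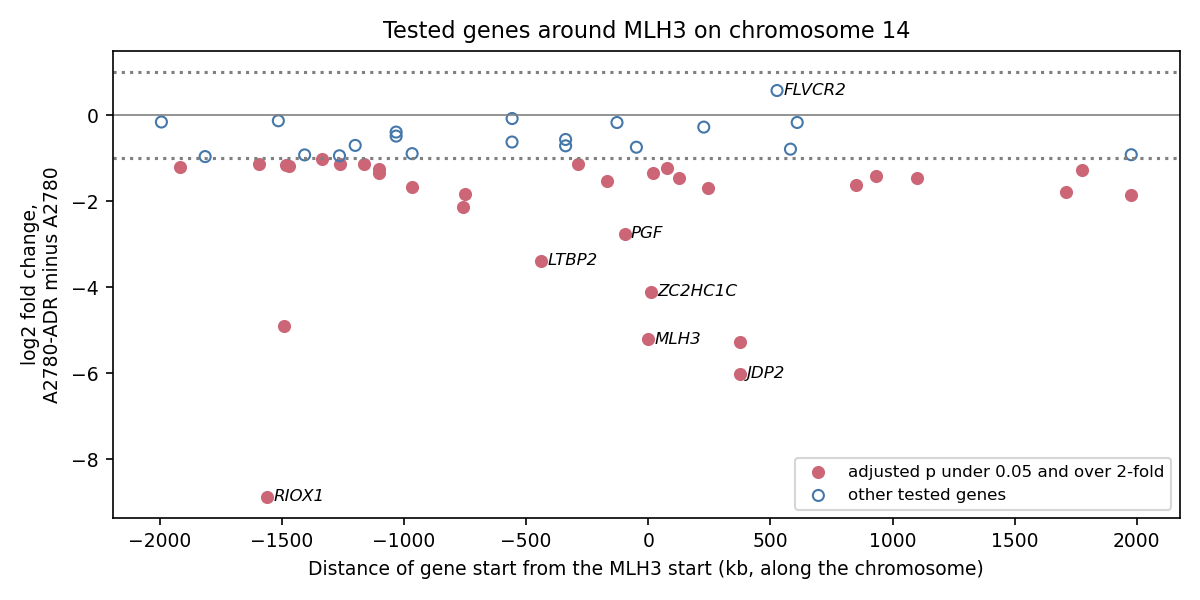
Log2 fold change (y axis, A2780-ADR minus A2780, limma) of tested genes against the distance of their start from that of MLH3 (x axis, kb), up to 2000 kb on each side, with DEGs as filled points and dotted lines at a 2-fold change. All but FLVCR2 lie below 0, and RIOX1 at -8.87, JDP2 at -6.02 and AF111167.2 at -5.28 lie below MLH3 at -5.22.

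The 3 tested genes with the profile most like that of MLH3 over the 6 samples, by mean absolute difference of centred log2 levels, were NMI (0.07) on chromosome 2, which encodes a partner of MYC and STAT proteins, CCR3 (0.12) on chromosome 3, a chemokine receptor gene, and ENSG00000233255 (0.13). NMI had 359 to 397 normalized counts in A2780 and 7.70 to 10.6 in A2780-ADR. CCR3 was much lower, at 38.7 to 47.5 in A2780 and 0 to 0.96 in A2780-ADR, so its likeness to MLH3 depends on the added count of 1.

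PMS1, PMS2, PCNA and LIG1 each start within 1000 bases of a coding gene on the opposite strand, and the members and these partners did not always change alike. PMS1 and ORMDL1, a regulator of sphingolipid synthesis, start 286 bases apart, with log2 fold changes of -0.07 and 0.07. PMS2 and AIMP2, a scaffold of tRNA synthetases, start 120 bases apart, and AIMP2 fell by 0.25 (adjusted p = 0.00392 from limma).

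PCNA rose while CDS2, a phospholipid synthesis gene that starts 160 bases away, had 3796, 3716 and 3666 normalized counts in A2780 and 2222, 2281 and 2414 in A2780-ADR (log2 fold change -0.69, adjusted p = 7.06e-08 from limma). LIG1 and ZSWIM9, which start 89 bases apart, were both lower, by log2 fold changes of -0.19 and -0.91. Differences within these pairs were not tested. Of the remaining neighbours, ANKRD34B (1.87) beside MSH3 and C2orf88 (1.07) beside PMS1 were DEGs with higher levels, OSGEPL1 (-0.22, adjusted p = 0.023 from limma) was lower, FOXN2 (0.67) and PLA2G4C (0.39, adjusted p = 0.003 from limma) passed the test as higher, and RASGRF2 (0.31) and TMEM230 (-0.08) did not pass. RSPH10B beside PMS2 and WDR64 and BECN2 beside EXO1 were under the count filter. AC011466.3, an antisense transcript over 2.72% of the LIG1 exon bases, had a log2 fold change of 0.40 (adjusted p = 0.27 from limma), and the other features that overlap members, small RNAs, pseudogenes and an antisense transcript, were under the filter too.

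Genes that work with the members were read from 6 lists. Of 12 resynthesis partners (the single-strand binding RPA subunits, the RFC clamp loader and the POLD subunits of polymerase delta), 8 fell and 1 rose by limma's adjusted p, and 0 were DEGs with limma, edgeR or DESeq2 (9 had an unadjusted p under 0.05). Of all tested genes 36.4% fell, 35.4% rose and 27.6% were DEGs, and the 75% of this list that passed lies near the 71.8% of all. The median log2 fold change was -0.26. RFC5, a clamp loader subunit, went from 1858 ± 55.6 to 1178 ± 47.1 normalized counts (log2 fold change -0.66), and POLD1, the catalytic subunit, from 4038 ± 129 to 2761 ± 281 (-0.55), so RFC5 and POLD1 moved opposite to PCNA. RFC4 was the gene that rose (0.18).

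Of 15 modifiers and partners of PCNA, 8 rose and 4 fell, with 1 DEG. SHPRH, a ubiquitin ligase for PCNA, had 612, 623 and 556 normalized counts in A2780 and 1879, 1828 and 2028 in A2780-ADR, far apart between the lines (log2 fold change 1.68). Among the 7 nuclease and ligase relatives, 4 rose, 2 fell and 0 were DEGs with limma, edgeR or DESeq2 (6 had an unadjusted p under 0.05), or 1 without A2780 replicate 3 or A2780-ADR replicate 2. LIG3 (0.70) and LIG4 (0.80), the ligases of other repair routes, rose where LIG1 fell, and GEN1, a nuclease of the family of EXO1, rose by 0.96. The 2 relatives that fell were FEN1 (-0.15), a nuclease of that family too, and XRCC1 (-0.23), so the list did not move together. Of 8 factors tied to mismatch repair, SETD2, whose histone mark recruits MSH6, fell (-0.41), FAN1 fell (-0.15), HMGB1 rose (0.14), and 5 did not pass, with 0 DEGs by limma, edgeR or DESeq2 (3 had an unadjusted p under 0.05). The DEG shares of these lists lie below the 27.6% of all tested genes. By adjusted p alone, 80% of the PCNA list, 85.7% of the nuclease and ligase list and 37.5% of the associated factors passed. Of all tested genes 71.8% did, 35.4% higher and 36.4% lower.

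Of 28 S phase genes, 10 rose and 13 fell, with a median of -0.07, and the 82.1% that passed compares with 71.8% of all tested genes (35.4% higher, 36.4% lower). RRM2, the ribonucleotide reductase subunit, was the 1 DEG, where 27.6% of all tested genes were (2 genes were without A2780 replicate 3), with 5814, 6004 and 6027 normalized counts in A2780 and 14119, 13579.6 and 13040 in A2780-ADR (log2 fold change 1.19). The proliferation marker MKI67 had a log2 fold change of 0.15, MCM6 0.72, CDT1 -0.87 and TOP2A -0.73. EXO1, PCNA, MSH6 and LIG1, with log2 fold changes of 0.33, 0.32, -0.63 and -0.19, lay within the range of these genes. Of 12 tested genes of the damage checkpoint, 7 rose and 2 fell, with 0 DEGs by limma, edgeR or DESeq2 (9 had an unadjusted p under 0.05), against 35.4% higher, 36.4% lower and 27.6% DEGs over all tested genes. ATR, the kinase that answers to single-stranded DNA, rose by a log2 fold change of 0.65, and its effector CHEK1 by 0.49. The 2 that fell were TIMELESS (-0.33) and CHEK2 (-0.13), and ATRIP, the partner of ATR, was under the count filter.

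**Figure D5:**
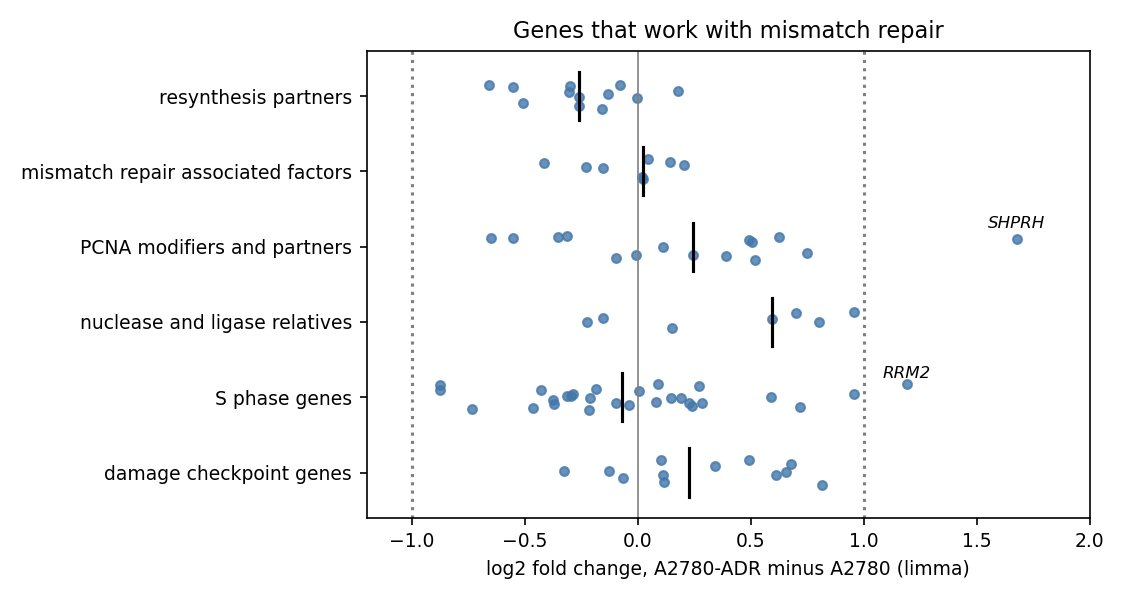
Log2 fold change (x axis, A2780-ADR minus A2780, limma) of the tested genes of 6 lists (y axis), as points spread vertically for display, with the median of each list as a black bar and dotted lines at a 2-fold change. SHPRH at 1.68 and RRM2 at 1.19 are the points beyond 2-fold, and the medians run from -0.26 to 0.59.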

How the data were processed

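The authors sequenced TruSeq Stranded mRNA libraries and deposited gene counts normalized with DESeq (a signal value per gene). Per the submitters' processing notes, STAR and HTSeq were used with GRCh38. Versions, annotation and strand setting: not given in the sources used here. In each library 100% of values were whole multiples, within 0.01, of what 1 read is worth, which gave back the reads. On those reads edgeR called 4748 genes. Of the identifiers, 57447 matched GENCODE release 29, which gave names, positions and exon lengths. RefSeq gave the promoter windows.

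The line named in each title gave the group. Genes were tested with limma 3.58.1 (trend) in R 4.3.3 on log2(normalized count + 1), so folds of low genes are understated. Ratios were compared by exact permutation tests in scipy 1.17.1. The fit was tested on simulated counts. Alternatives were a pseudocount of 0.5 or 5, a filter at 50 or none, no fold threshold, equal totals, TMM, limma's robust option, edgeR 4.0.16, DESeq2 1.42.0, the replicate block and each sample left out.

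Named are the 8 members, genes that overlap them or are their nearest coding neighbours (some of them are not reported here), the 3 genes most like MLH3, ABCB1, and list genes that were DEGs. Other genes of lists and of the MLH3 region were picked with their values in view, as were that region, the NRF1 and cAMP motifs and the principal transcript length. The members and lists were chosen with earlier results of these data known.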

Additional observations from a re-analysis of the deposited data

How the results depend on the processing

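MLH3 was the 1 DEG among the 8 genes under every alternative that kept the 2-fold threshold, with a log2 fold change of -5.41 to -4.76. The log2 fold changes of MSH6 (-0.64 to -0.60), EXO1 (0.30 to 0.37), PCNA (0.25 to 0.41) and LIG1 (-0.22 to -0.15) kept their sign and an adjusted p under 0.05 in all 16 alternative fits with limma, edgeR or DESeq2, and PMS2 never passed. MSH3 also passed with equal totals (0.21, adjusted p = 0.0282 from limma), with a pseudocount of 5 (0.17, adjusted p = 0.049) and with the replicate block. PMS1 ran from -0.18 to 0.044 when single samples were left out, turning from -0.07 to 0.044 without A2780 replicate 3. Without the fold threshold, 12210 of all tested genes passed in place of 4688, 5 of the 8 members, 9 resynthesis partners, 3 associated factors, 12 PCNA modifiers, 6 nuclease and ligase relatives, 23 S phase genes and 9 checkpoint genes, since the threshold itself was dropped. With a mean of at least 50 there were 2955 DEGs among fewer genes tested.

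Leaving out single samples gave 0 to 1 DEGs among the nuclease and ligase relatives (1 without A2780 replicate 3 and without A2780-ADR replicate 2) and 1 to 2 among the S phase genes (2 without A2780 replicate 3). The MLH3 to PMS2 log2 ratio was -4.80 with a pseudocount of 5, which weighs on the low MLH3 counts. Leaving out single samples gave -5.46 to -5.12.

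Replicate numbers did not pair the samples (correlations of deviations 0.004, -0.016 and 0.077). With the replicate block, 4690 genes were DEGs (1 of the 8 members), and MSH3 had an adjusted p = 0.0431 from limma (0.17). The differences of the log2 ratios were 0.81, -0.12 and -5.27 with the block.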
